A study of Mus musculus with 2 samples.

Results

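The Ifi200 genes of the mouse, also called the HIN-200 or PYHIN genes, form a cluster on chromosome 1. They were described across the cell types of 2 single-cell libraries of mouse lung. The members were found by gene symbol in the gene lists of the deposited matrices: Ifi203, Ifi204, Mndal, Pyhin1 and Aim2, each as 1 row, which makes 5 of the 27998 genes and 5 of the 13 family genes that the matrices hold. These 5 genes were picked with their KO and WT levels in the same libraries already known, so all KO against WT values of the members are given as a description, with no test.

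Proteins of this family join an N-terminal pyrin domain, which binds other pyrin domains, to a C-terminal HIN domain, which binds nucleic acid; some members carry only one kind of domain. AIM2 binds double-stranded DNA in the cytosol and recruits the adaptor ASC, encoded by Pycard, to activate caspase-1 in an inflammasome. IFI204 has been described as a DNA sensor that acts through STING to induce type I interferon, and the genes of the cluster are in turn induced by interferon. Most of what is known of them comes from macrophages and other leukocytes rather than from endothelium.

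The study addressed a mouse model of hereditary hemorrhagic telangiectasia type 2, a disease of blood vessels known to arise from mutations of ACVRL1, a receptor of the BMP pathway on endothelial cells. One library was labelled KO and the other WT, and the labels give both as lung of C57BL/6J animals 10 to 12 weeks old. Dissociated cells had been sorted for surface VE-cadherin, an endothelial adhesion protein, and against CD45, a leukocyte protein, before 10x Genomics 3' version 3 chemistry. The gene knocked out, the promoter or Cre behind the knockout and the number of animals per library are not given in the sources used here. With 1 library per group, genotype, animal and library cannot be told apart, no difference has a replicate check, and intervals cover counting error only.

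The KO library held 17864581 UMIs (unique molecular identifiers, each standing for 1 captured mRNA) in 2196 barcodes, and the WT library 25667220 UMIs in 3482 barcodes. After filters on genes and mitochondrial UMIs and removal of called doublets, 1315 KO and 2729 WT cells were kept. The libraries shared 12 barcodes, 6 of them among kept cells. Cells were clustered and clusters named by marker genes; 482 KO cells (36.7%) and 1499 WT cells (54.9%) were endothelial-like, with a median of 5336.5 and 4292 UMIs. The endothelial sort thus describes both libraries only in part: 582 KO and 803 WT cells were AT2-like, the surfactant-producing epithelium, and others were fibroblast-like, mural or myeloid. Cells with Y-linked transcripts alone numbered 763 in the KO library and 9 in the WT library, and cells with Xist alone numbered 200 in the KO library and 2399 in the WT library, so the KO library held cells of both sexes and the WT library almost none of male type. Another 20 KO and 5 WT cells held both kinds of transcript. An endothelial-like cluster led by Igfbp3, Trp53i11 and Peg3, called endothelial cluster 6 here, held 118 KO cells and 2 WT cells. Acvrl1 stood at 1049.8 CPM (counts per 1000000 UMIs; exact Poisson 95% interval 1011 to 1090) in KO endothelial-like cells and at 1469 CPM (1440 to 1498) in WT endothelial-like cells, and at 1264 and 1312 CPM in KO and WT gCap-like cells. A 3' count does not show whether an upstream part of a gene was deleted.

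The endothelial-like cells divided into gCap-like cells (general capillary, 166 KO and 508 WT), aCap-like cells (the aerocytes, which lie against the alveolar surface, 69 KO and 411 WT), arterial-like cells (24 KO and 89 WT), venous-like cells (13 KO and 55 WT), lymphatic-like cells (7 KO and 3 WT), endothelial cluster 6, and a further cluster of 85 KO and 431 WT cells. That last cluster was led by Ivns1abp and Esm1, with haemoglobin genes also among its 10 leading genes. None of these 10 was a listed marker of an endothelial subtype, and the cluster is called endothelial cluster 2 here. Levels below are UMIs of a gene per 1000000 UMIs of a class in 1 library. A difference was called where the levels differed by at least 1.5-fold and their Poisson 95% intervals did not overlap, among genes of at least 10 CPM in either library; KO over WT ratios carry exact conditional 95% intervals. Ratios are given for classes with at least 50 cells in each library.

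The 13 family genes of the matrices span 680.93 kb of chromosome 1 (GRCm38, GENCODE M21 annotation), 3 on the plus strand and 10 on the minus strand. Aim2 lies at 173350879 to 173466040 on the plus strand and Pyhin1 at 173630917 to 173647928 on the plus strand, where the annotation calls it Ifi209. Ifi204 lies at 173747293 to 173766943, Mndal at 173849126 to 173942491 and Ifi203 at 173920407 to 173942672, all on the minus strand. The annotated span of Mndal runs over that of Ifi203 on the same strand, but their exons shared only 37 bases, which is 1.02% of the exon bases of Mndal and 0.552% of those of Ifi203.

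**Figure D1:**
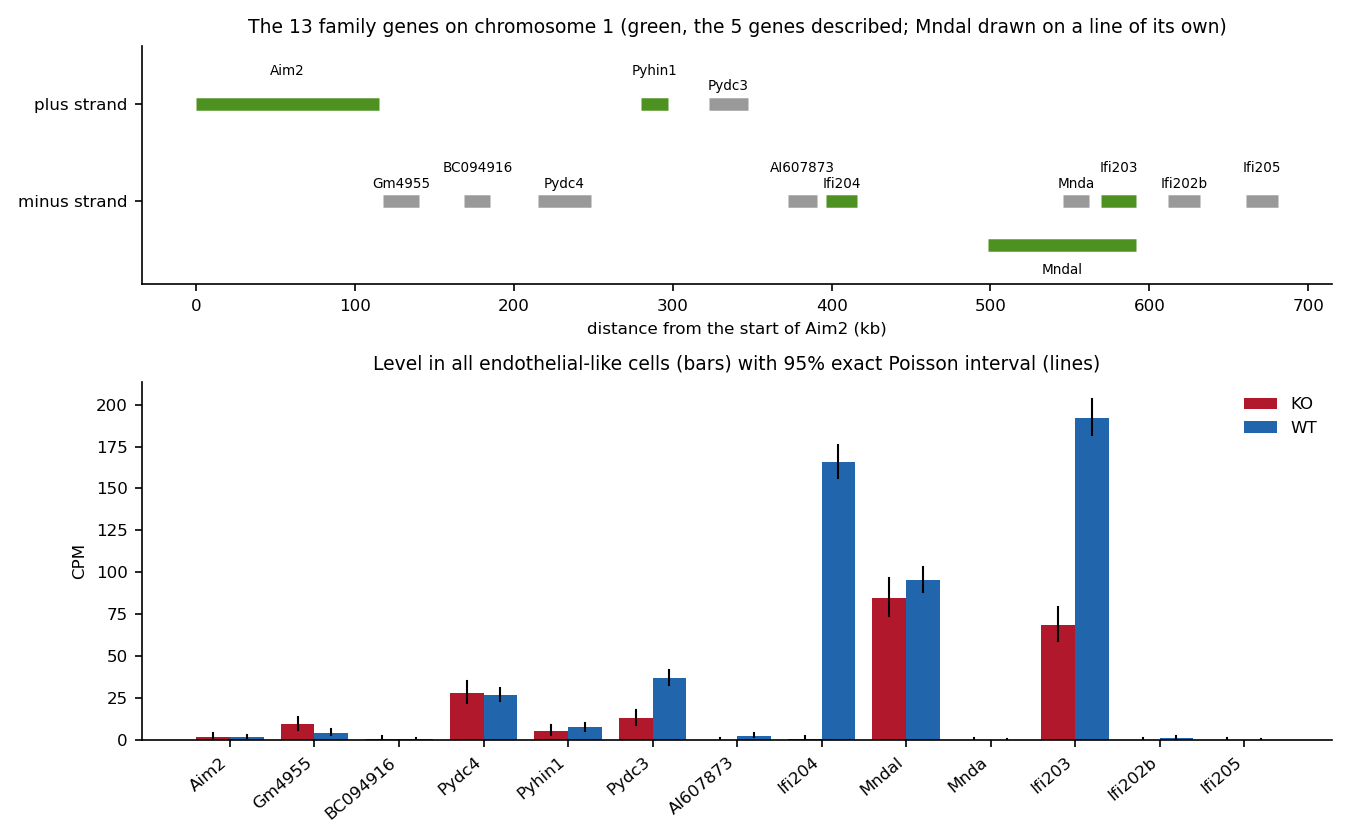
Top, the 13 family genes by strand along chromosome 1 (x, distance in kb from the start of Aim2; green, the 5 members). Bottom, the level of each gene in all endothelial-like cells (bars, CPM, with exact Poisson 95% intervals as lines), KO left of WT. Levels are to be read within a gene, KO beside WT; Ifi204 stands at 0.760 CPM in KO and 166 CPM in WT, while Mndal has 84.8 CPM in KO and 95.6 CPM in WT.

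Copies in the family are alike enough for reads to be shared, which bears on each level below. Over the last 500 bases of the transcripts, where 3' reads fall, 18.5% of the 31-base words of Ifi204 occurred in another gene and none of its 91-base words did; for Ifi203 the shares were 7.13% and 0, and for Aim2 3.76% and 0. Mndal shared 35.6% of its 31-base words, and 4.14% of its 91-base words occurred in Mnda. Pyhin1 shared 71.7% and 58.5%, with BC094916, and its level is therefore uncertain. Mnda and Ifi205 shared 59.0% of their 91-base words, with each other. Along whole transcripts Ifi204 was 95.04% identical to Mnda over 1511 aligned bases and 89.9% identical to AI607873 over 2289 bases. The matrices hold no read bases, and variants within these genes were not analysed here.

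Promoter windows were read for the members because the genes of the cluster are known to be induced by interferon and their KO over WT ratios differed from member to member. RefSeq windows of 300 bases on GRCm38.p6, 250 before to 50 after a transcript start, were present for 12 of the family genes in 14 windows, among them 4 of the 5 members (Mndal, Ifi203, Aim2 and Pyhin1, not Ifi204). The letters GAAANNGAAA on either strand, the core of the interferon-stimulated response element, stood in windows of 9 of the 12 genes. Mndal and Ifi203 were among them, but neither Aim2 nor Pyhin1 was. Over all genes with a window, 1079 of 27025 (3.99%) held them, and over all windows 1131 of 32851 (3.44%) did. A match is a description of these letters only. The windows of Mndal, Ifi203, Ifi205 and Pyhin1 are printed 5′ to 3′ on the strand of the gene, with the matched letters in capitals: Mndal and Ifi203 because Ifi203 was called lower in KO capillary cells and Mndal was not, Ifi205 because it had UMIs in fibroblasts and none in endothelium, and Pyhin1 as a member with no match.
Mndal (chr1:173880138-173880437, minus strand): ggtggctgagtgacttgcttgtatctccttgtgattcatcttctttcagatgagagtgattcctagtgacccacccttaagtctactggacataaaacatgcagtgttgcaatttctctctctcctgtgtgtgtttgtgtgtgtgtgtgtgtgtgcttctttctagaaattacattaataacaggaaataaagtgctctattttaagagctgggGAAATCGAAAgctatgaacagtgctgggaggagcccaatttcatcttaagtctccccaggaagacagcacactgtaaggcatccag
Ifi203 (chr1:173942443-173942742, minus strand): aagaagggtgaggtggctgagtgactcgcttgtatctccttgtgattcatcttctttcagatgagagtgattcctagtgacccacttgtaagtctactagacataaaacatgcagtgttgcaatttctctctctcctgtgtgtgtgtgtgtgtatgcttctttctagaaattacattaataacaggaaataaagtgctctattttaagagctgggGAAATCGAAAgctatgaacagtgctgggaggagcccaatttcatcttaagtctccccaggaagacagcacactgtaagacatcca
Ifi205 (chr1:174031706-174032005, minus strand): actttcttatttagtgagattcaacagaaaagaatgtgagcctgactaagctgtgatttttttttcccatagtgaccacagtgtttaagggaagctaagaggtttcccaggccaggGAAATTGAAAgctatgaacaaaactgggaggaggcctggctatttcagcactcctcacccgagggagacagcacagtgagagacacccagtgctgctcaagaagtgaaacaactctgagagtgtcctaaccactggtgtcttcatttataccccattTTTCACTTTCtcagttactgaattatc
Pyhin1 (chr1:173630609-173630908, plus strand): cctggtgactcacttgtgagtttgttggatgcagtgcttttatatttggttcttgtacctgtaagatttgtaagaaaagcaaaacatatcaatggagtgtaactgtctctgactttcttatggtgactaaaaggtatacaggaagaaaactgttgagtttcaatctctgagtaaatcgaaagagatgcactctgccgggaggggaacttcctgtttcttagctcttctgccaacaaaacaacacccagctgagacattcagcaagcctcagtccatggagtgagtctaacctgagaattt
The match begins at position -36 from the start of transcription in Mndal and at position -35 in Ifi203, and the first of 2 matches in Ifi205 begins at position -134; the second lies on the other strand. At another transcript start, a second window of Mndal held a match at position -54 and a second window of Ifi203 held none. Aligned to each other, the printed Mndal and Ifi203 windows were identical at 282 of 289 bases (97.6%). In the GENCODE M21 annotation the span of Mndal, on the minus strand, reaches 173942491. Its outermost annotated start thus lies inside the printed Ifi203 window, and the printed Mndal window belongs to another start.

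Ifi204, a nuclear and cytosolic DNA-binding protein, was abundant in WT blood endothelium and had no UMI in KO blood endothelium. In gCap-like cells it had 0 UMIs in KO, where the upper Poisson limit is 4.06 CPM, against 386 UMIs or 170 CPM (154 to 188) in WT. Taking 3 counts in the class as the floor, the KO level was 51.6-fold lower, and the exact upper limit of the ratio was 0.0240. At the WT level, 155 UMIs would have been counted in the KO cells. Endothelial cluster 2 had 0 UMIs in KO against 326 UMIs or 234 CPM (209 to 261) in WT. By that floor the KO level was 22.7-fold lower, with an upper limit of the ratio of 0.0546. The aCap-like cells had 0 UMIs in KO against 142 UMIs or 62.2 CPM (52.4 to 73.3) in WT, at least 8.87-fold lower.

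The other vascular classes held fewer cells, and in KO none of the blood vessel classes had a UMI of Ifi204. The arterial-like cells had 0 UMIs of Ifi204 in 24 KO cells against 222 UMIs in 89 WT cells, or 557 CPM (486 to 635) in WT. The venous-like cells had 0 UMIs in 13 KO cells against 38 UMIs in 55 WT cells, or 107 CPM (75.5 to 147) in WT. The 118 KO cells of endothelial cluster 6 had 0 UMIs. The 2 UMIs of KO endothelial-like cells came from 1 lymphatic-like cell. With all endothelial-like cells pooled, Ifi204 stood at 0.760 CPM (0.0921 to 2.75) in KO and 166 CPM (156 to 176) in WT, a ratio of 0.00459 (0.000555 to 0.0166).

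Within the WT library Ifi204 was graded along the vascular classes. It was highest in arterial-like cells, then came endothelial cluster 2, gCap-like, venous-like and aCap-like cells, and at each of these 4 steps the intervals of neighbours were apart. A UMI was found in 70.8% of WT arterial-like cells (exact 95% interval 60.2 to 79.9). When cells were thinned to 1500 UMIs apiece, 0 of 163 KO gCap-like cells held a UMI, or 1.84% taking 3 cells as the floor. The WT share was 21.6% (18.1 to 25.5), and without thinning the shares were 0% in KO and 38.0% in WT. Of the aCap-like cells, 0 of 67 KO cells held a UMI after thinning, or 4.48% by the same floor, against 7.04% (4.73 to 10.0) in WT. These floors are not exact 95% limits, so they are not to be set against the WT intervals. The thinned aCap-like cells held 28 UMIs in WT, too few for a call. AT2-like cells held a UMI after thinning in 0.187% of KO and 0.378% of WT cells, at a median of 19657 and 17699 UMIs per cell before thinning. The WT capillary shares were above these. The gCap-like cells of both libraries had a median of 4523.5 UMIs, so thinning cut AT2-like cells more. Free RNA in capillary cells therefore cannot be read from the AT2-like shares, and its part was not tested.

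**Figure D2:**
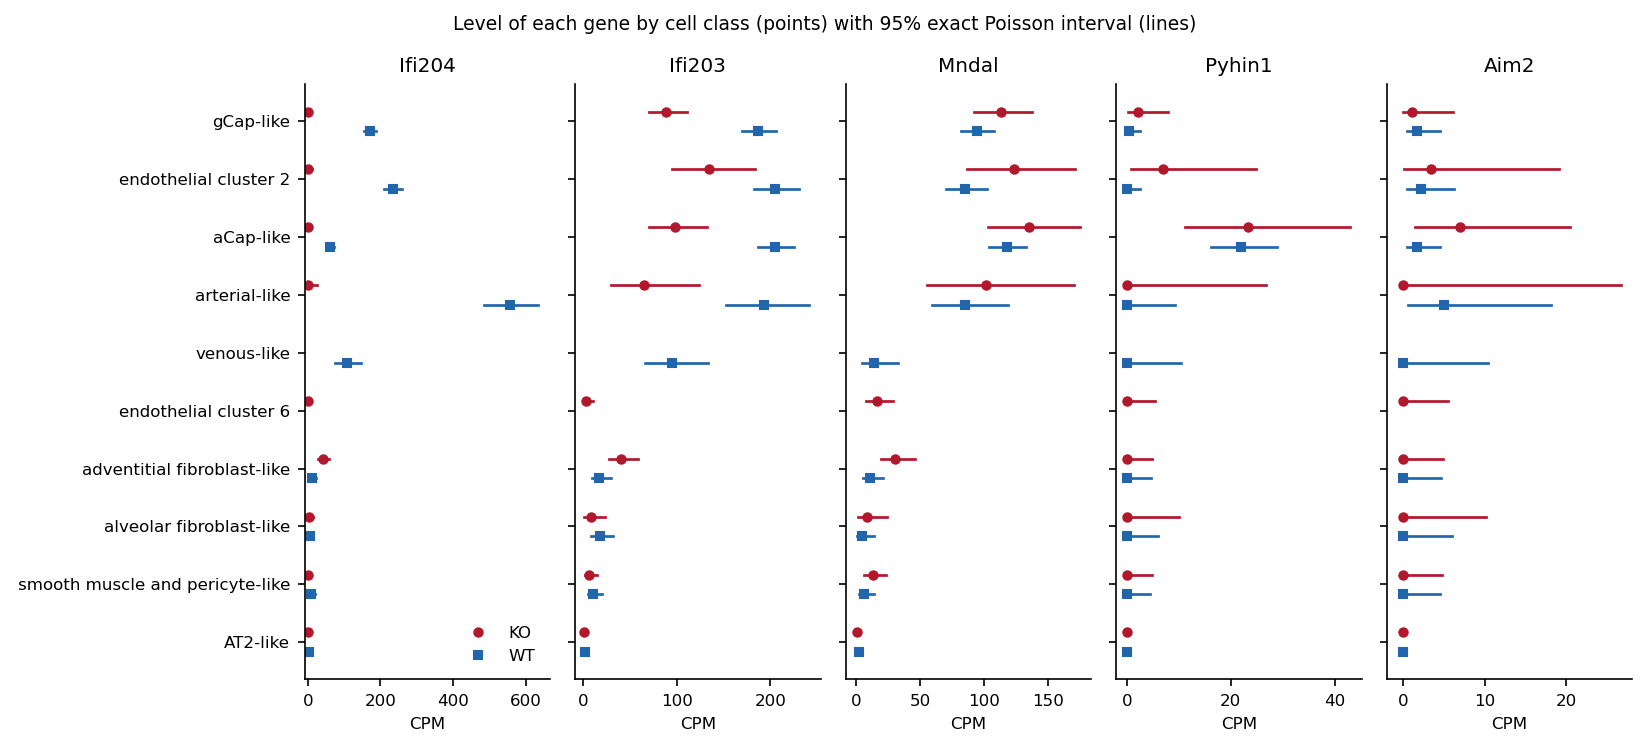
Level of each member (x, CPM, points with exact Poisson 95% intervals as lines) in each cell class with at least 20 cells in a library, KO circles above WT squares. Ifi204 is at 0 in KO gCap-like, cluster 2, aCap-like and arterial-like cells, against 62.2 to 557 CPM in the same WT classes, whereas it stands at 41.2 CPM in KO and 11.3 CPM in WT adventitial fibroblast-like cells.

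Ifi204 was not missing from the KO library as a whole. Adventitial fibroblast-like cells, which lie around large vessels and airways, had 31 UMIs or 41.2 CPM (28.0 to 58.5) in 50 KO cells and 9 UMIs or 11.3 CPM (5.17 to 21.5) in 67 WT cells, a ratio of 3.65 (1.69 to 8.71). A UMI was found in 18% (8.58 to 31.4) of these KO cells and in 7.46% (2.47 to 16.6) of the WT cells. The 5 highest KO cells held 80.6% of the KO UMIs and the highest held 10, so the KO level rests on few cells. After a stricter filter of 1000 genes and 5% mitochondrial UMIs the ratio was 2.41, with 23 UMIs in KO and 10 in WT, and was not called. All 14 KO cells with a UMI of Ifi204 held 43 UMIs together: 9 were adventitial fibroblast-like, and 1 each was AT2-like (5 UMIs), lymphatic-like (2 UMIs), neutrophil-like (3 UMIs), alveolar fibroblast-like (1 UMI) and macrophage and monocyte-like (1 UMI). Of the 9 fibroblast-like cells, 5 held Y-linked transcripts alone, 3 held Xist alone and 1 held neither. In AT2-like cells Ifi204 stood at 0.464 CPM in KO, all from 1 cell, and at 2.89 CPM in WT, a ratio of 0.161.

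Markers were read in the fibroblast-like cells. The 12 adventitial markers, Dcn among them, had been used to name this class, so their levels are no separate check of its identity. They summed to 74718 CPM in KO and 67227 CPM in WT cells of that class. Dcn, a matrix proteoglycan, stood at 12279 CPM in KO and 14036 CPM in WT. Ptprc, which encodes CD45, had 0 UMIs in the adventitial fibroblast-like and endothelial-like cells of both libraries. Of 14 macrophage markers, 4 had a UMI in KO and 1 in WT fibroblast-like cells, summing to 157 and 263 CPM; nearly all of it was Lyz2 (115 of 118 UMIs in KO and 209 of 209 in WT), which AT2 cells also express. The 14 endothelial markers summed to 399 CPM in KO and 685 CPM in WT fibroblast-like cells, against 25132 CPM in KO and 23882 CPM in WT gCap-like cells. In gCap-like cells 7 of the 14 macrophage markers had a UMI in each library, summing to 297 CPM in KO and 543 CPM in WT, and Lyz2 made up 260 of 270 UMIs in KO and 1213 of 1231 in WT. Surfactant transcripts were also found there: the 11 AT2 markers summed to 2646 CPM in KO and 4917 CPM in WT gCap-like cells. The part of this admixed RNA in the levels of the members was not tested.

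The libraries differed in the sex of their cells, and Ifi204 was therefore also read by sex-linked transcripts. Among endothelial-like cells, 76 KO cells with Xist alone had 0 UMIs and 265 KO cells with Y-linked transcripts alone had 2 UMIs (1.35 CPM), against 1024 UMIs or 161 CPM (151 to 171) in the 1381 WT cells with Xist alone. At that WT level 74.9 UMIs would have been counted in the KO cells with Xist alone and 238 in those with Y-linked transcripts alone. The level of KO cells with Xist alone was at least 25.0-fold lower. Most of these cells, 58 of 76, lay in endothelial cluster 6. Without that cluster, 18 KO cells with Xist alone had 0 UMIs where 18.4 would have been counted at the WT level, 6.14-fold lower by that floor. In gCap-like cells, 99 KO cells with Y-linked transcripts alone had 0 UMIs, 30.3-fold lower than WT cells with Xist alone by that floor. In adventitial fibroblast-like cells Ifi204 stood at 41.9 CPM (16.8 to 86.3) in 14 KO cells with Xist alone and at 37.8 CPM (22.8 to 59.0) in 28 KO cells with Y-linked transcripts alone, against 11.5 CPM (5.24 to 21.7) in 66 WT cells with Xist alone.

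**Figure D3:**
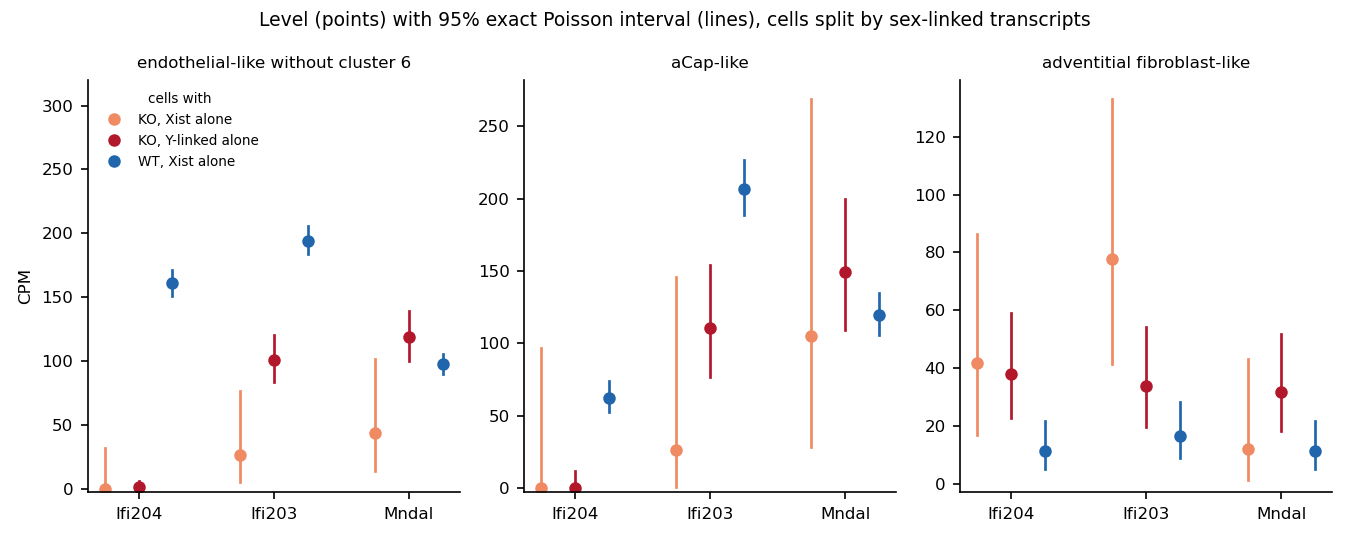
Level of Ifi204, Ifi203 and Mndal (CPM, with exact Poisson 95% intervals) in endothelial-like cells without cluster 6, in aCap-like cells and in adventitial fibroblast-like cells, for KO cells with Xist alone, KO cells with Y-linked transcripts alone and WT cells with Xist alone. Ifi204 is at or near 0 in both KO endothelial-like sets, and both KO fibroblast-like sets, at 41.9 and 37.8 CPM, lie above the WT set at 11.5 CPM.

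Ifi203, a nuclear member of the family, was lower in KO capillaries but present. In gCap-like cells it had 81 UMIs or 89.1 CPM (70.8 to 111) in KO and 424 UMIs or 187 CPM (170 to 206) in WT, a ratio of 0.477 (0.371 to 0.606), called lower. In aCap-like cells it had 42 UMIs or 98.1 CPM (70.7 to 133) in KO and 469 UMIs or 205 CPM (187 to 225) in WT, a ratio of 0.478 (0.340 to 0.656), called lower. In endothelial cluster 2 the level was 134 CPM (95.4 to 183) in KO and 205 CPM (182 to 230) in WT, a ratio of 0.654 (0.456 to 0.916) that was not called, since the intervals met. Arterial-like cells stood at 65.3 CPM (29.8 to 124) in 24 KO cells and at 193 CPM (152 to 241) in WT. After thinning, a UMI was found in 9.82% (5.72 to 15.5) of KO and 22.8% (19.2 to 26.8) of WT gCap-like cells; without thinning the shares were 29.5% and 45.1%.

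Unlike Ifi204, Ifi203 was even across the WT vascular classes. The intervals of WT aCap-like cells, endothelial cluster 2, arterial-like and gCap-like cells overlapped, and venous-like cells lay apart below them at 95.5 CPM (66.2 to 133). The KO cells of cluster 6 had 2 UMIs, 2.97 CPM (0.360 to 10.7). With all endothelial-like cells pooled, Ifi203 stood at 68.4 CPM (58.8 to 79.2) in KO and 192 CPM (182 to 203) in WT, a ratio of 0.356, and without that cluster the ratio was 0.473 (0.402 to 0.554). Levels of Ifi203 also differed by sex-linked transcripts, on few UMIs: all 76 KO endothelial-like cells with Xist alone held 3 UMIs together. Without the cluster, 18 KO cells with Xist alone had 26.2 CPM (5.40 to 76.5). There, 220 KO cells with Y-linked transcripts alone had 101 CPM (83.8 to 120), against 194 CPM (184 to 205) in WT cells with Xist alone. The part of sex, of the animals behind it or of the mix of endothelial classes in the lower KO level was not tested. In adventitial fibroblast-like cells Ifi203 had 41.2 CPM in KO and 17.6 CPM (9.62 to 29.5) in WT, a ratio of 2.34 (1.21 to 4.77), not called. There, KO cells with Xist alone stood at 77.8 CPM (41.4 to 133) and KO cells with Y-linked transcripts alone at 33.8 CPM (19.7 to 54.1), against 16.5 CPM (8.81 to 28.3) in WT cells with Xist alone.

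Mndal, whose printed promoter window nearly matches that of Ifi203, was not called between the libraries in any class where it reached 10 CPM. In gCap-like cells it had 103 UMIs or 113 CPM (92.5 to 137) in KO and 214 UMIs or 94.4 CPM (82.1 to 108) in WT, a ratio of 1.20 (0.940 to 1.53). In aCap-like cells it had 135 CPM (103 to 175) in KO and 118 CPM (104 to 133) in WT, a ratio of 1.15 that was 0.807 (0.387 to 1.52) when cells were thinned to 1500 UMIs. In endothelial cluster 2 it had 124 CPM (86.7 to 171) in KO and 85.3 CPM (70.7 to 102) in WT, a ratio of 1.45 (0.970 to 2.12). Arterial-like cells stood at 102 CPM (55.5 to 170) in KO and 85.3 CPM (59.1 to 119) in WT. The intervals of these ratios leave room for a modest difference in either direction in gCap-like cells, and for one of up to 2.12-fold in endothelial cluster 2. Under other settings the gCap-like ratio was 1.44 (1.07 to 1.91) with doublets kept and 1.29 (1.06 to 1.57) at a lower clustering resolution. It was 1.31 (1.01 to 1.68) with family genes left out of the clustering and 1.53 (0.969 to 2.38) after thinning. Under the lax and strict cell filters it was 1.04 and 1.01, and none of these was called.

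The levels of Mndal by vessel type also had a low end in veins. WT venous-like cells held 5 UMIs, 14.0 CPM (4.56 to 32.8), below the intervals of the WT capillary and arterial-like classes, and the KO cells of endothelial cluster 6 held 11 UMIs, 16.3 CPM (8.16 to 29.2). With all endothelial-like cells pooled, Mndal stood at 84.8 CPM (74.0 to 96.6) in KO and 95.6 CPM (88.4 to 103) in WT, a ratio of 0.886 (0.758 to 1.03), and without that cluster the ratio was 1.13 (0.967 to 1.33). Between cells with Xist alone, most of them in that cluster for KO, the ratio was 0.286 and called lower. By sex-linked transcripts, without the cluster, 18 KO cells with Xist alone had 43.6 CPM (14.2 to 102) and those with Y-linked transcripts alone 118 CPM (100.1 to 139), against 97.3 CPM (89.8 to 105) in WT cells with Xist alone. Adventitial fibroblast-like cells had 30.6 CPM in KO and 11.3 CPM in WT, a ratio of 2.70 (1.21 to 6.64), not called. In AT2-like cells, under 10 CPM, Mndal had 5 UMIs or 0.464 CPM (0.151 to 1.08) in KO and 27 UMIs or 1.95 CPM (1.28 to 2.83) in WT, a ratio of 0.238 (0.0716 to 0.628).

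In the WT library Pyhin1 was found almost entirely in aerocytes, and in the KO library mostly there, on few UMIs. In WT, 50 of the 51 UMIs in endothelial-like cells were in aCap-like cells, and in KO 10 of 14 were. Its level in aCap-like cells was 23.4 CPM (11.2 to 43.0) in KO and 21.9 CPM (16.3 to 28.9) in WT, a ratio of 1.07 (0.482 to 2.13). A UMI was found in 10.1% (4.18 to 19.8) of KO and 10.2% (7.46 to 13.6) of WT aCap-like cells. The gCap-like cells held 2 UMIs in KO and 1 in WT, and endothelial cluster 2 held 2 in KO and 0 in WT. Because much of the 3' end of Pyhin1 is shared with BC094916, its level is uncertain. How reads that match both genes were counted was not tested.

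Aim2, the DNA-binding part of the AIM2 inflammasome, was close to the limit of detection. Endothelial-like cells held 5 UMIs in KO (1.90 CPM) and 13 UMIs in WT (1.93 CPM), a ratio of 0.983 (0.274 to 2.94). AT2-like, adventitial fibroblast-like and smooth muscle and pericyte-like cells held 0 UMIs in both libraries. A difference inside that interval was not detectable at this depth.

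Counted over the 5 members, the calls were as follows, with the share of all tested genes beside each; since the members were picked on this contrast, nothing is read from the counts. In gCap-like cells 2 of the 3 members that reached 10 CPM were called lower in KO, and 2.5% of 8815 genes were. In aCap-like cells 2 of 4 were called lower, and 2.04% of 8821 genes were. In endothelial cluster 2 1 of 3 was called lower, and 2% of 9260 genes were. Over all endothelial-like cells 2 of 3 were called lower, and 5.46% of 8923 genes were. In adventitial fibroblast-like cells 1 of 3 was called higher, and 2.69% of 8967 genes were. In smooth muscle and pericyte-like cells 0 of 2 were called, and 7.07% of genes were called in either direction; in AT2-like cells no member reached 10 CPM. The summed members stood at 161 CPM in KO and 463 CPM in WT endothelial-like cells, a ratio of 0.348 (0.314 to 0.385) that was 0.539 with Ifi204 left out and 0.0788 between cells with Xist alone, and at 113 CPM in KO and 40.2 CPM in WT adventitial fibroblast-like cells, a ratio of 2.81 (1.85 to 4.36).

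**Figure D4:**
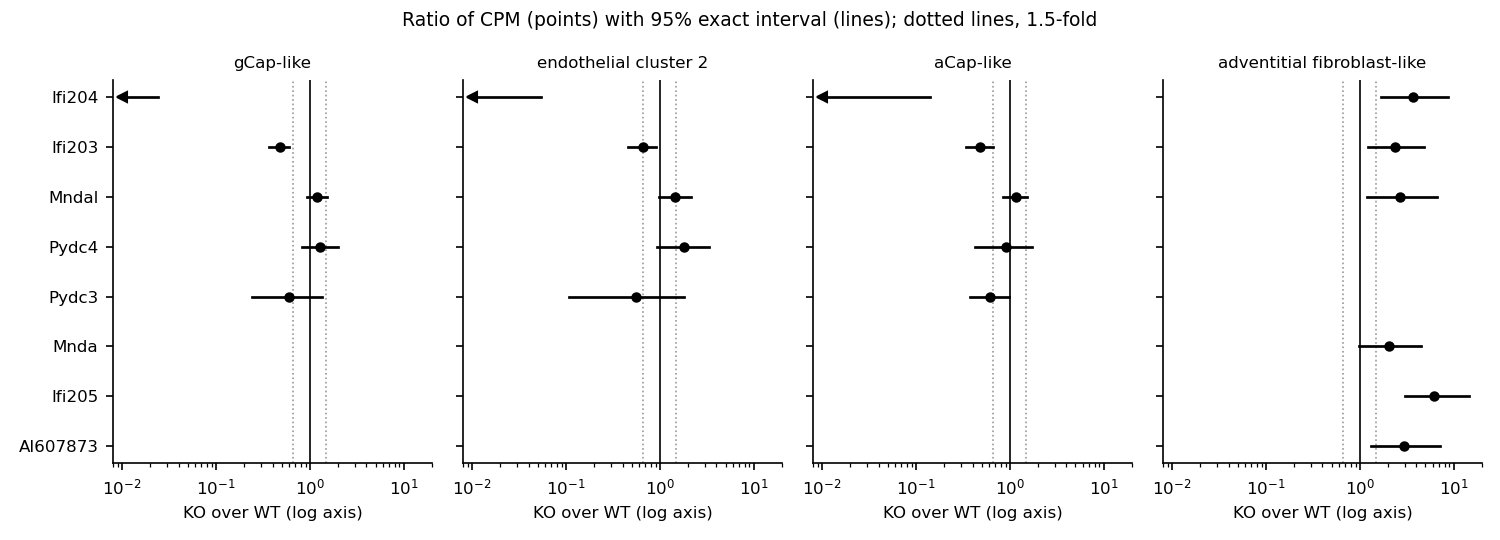
KO over WT ratio of levels (x, log axis, points with exact conditional 95% intervals as lines) for 3 members and 5 other family genes in 4 classes. Genes with fewer than 10 UMIs in a class, KO and WT together, are not drawn. Dotted lines mark 1.5-fold, and an arrow ends at the upper limit where KO has 0 UMIs. Ifi204 is marked by an arrow in gCap-like, cluster 2 and aCap-like cells and lies at 3.65 in adventitial fibroblast-like cells, while Mndal lies between 1.15 and 1.45 in the 3 endothelial classes.

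Among the other 8 family genes, some were found in the fibroblast-like cells. Ifi205 had 0 UMIs in endothelial-like cells of both libraries, but in adventitial fibroblast-like cells it had 53 UMIs or 70.5 CPM (52.8 to 92.2) in KO and 9 UMIs or 11.3 CPM in WT, a ratio of 6.23 (3.05 to 14.4), called higher. A UMI of Ifi205 was found in 14 of 50 KO and 5 of 67 WT cells of that class. AI607873, which the annotation calls Ifi207, had 25 UMIs or 33.2 CPM (21.5 to 49.1) in KO and 9 UMIs or 11.3 CPM in WT, a ratio of 2.94, called higher, and in endothelial-like cells 0 UMIs in KO against 18 in WT. Mnda had 30.6 CPM in KO and 15.1 CPM in WT fibroblast-like cells, a ratio of 2.03 that was not called, and 0 UMIs in endothelial-like cells. Ifi205 and Mnda share much of their 3' ends, so the level of each is uncertain. Of these 8 genes, 2 of the 3 that reached 10 CPM in the fibroblast-like cells were called higher, as were 2.69% of all genes tested.

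In pooled endothelial-like cells, 2 of these 8 genes reached 10 CPM, and without endothelial cluster 6, 3 did. The added gene was Gm4955, annotated as Ifi206. Without that cluster it had 11.7 CPM in KO and 4.47 CPM in WT, a ratio of 2.63 (1.46 to 4.68), called higher. In gCap-like cells its ratio was 3.33 (1.29 to 8.94), not called, on 12 UMIs in KO and 9 in WT. Pydc3, a pyrin-domain gene that the annotation calls Ifi208, had 12.9 CPM in KO and 37.0 CPM in WT endothelial-like cells, a ratio of 0.349 (0.236 to 0.501), called lower. In aCap-like cells it had 51.4 CPM in KO and 82.8 CPM in WT, a ratio of 0.621 (0.380 to 0.968) that was not called. Pydc4, annotated as Ifi213, had 28.1 CPM in KO and 27.1 CPM in WT endothelial-like cells, a ratio of 1.04. None of the 3 that reached 10 CPM in gCap-like cells, in aCap-like cells or in endothelial cluster 2 was called, where 4%, 3.74% and 3.79% of all genes tested were called in either direction. Outside the family, 39 genes of the matrices lie within 1 Mb of the locus, 29 with no UMI in endothelial-like cells and 3 at 10 CPM or more. Of these 3, Pigm, which acts in the making of GPI anchors, had 46.4 CPM in KO and 30.5 CPM in WT, a ratio of 1.52 (1.21 to 1.91), called higher. Tagln2, an actin-binding protein, had 571 CPM in KO and 608 CPM in WT, and Dusp23, a phosphatase, had 90.1 CPM in KO and 106 CPM in WT, neither called.

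Genes that act with the family were read from 4 lists in endothelial-like cells, where the median log2 ratio of all genes was -0.05, 4.31% of genes were called higher in KO and 5.46% lower. Of the 12 listed genes of the AIM2 inflammasome, 11 were in the matrices and 4 reached 10 CPM; 1 was called higher and 0 lower, with a median log2 ratio of 0.03. The one called was Ninj1, which takes part in membrane rupture, with 60.8 CPM in KO and 34.9 CPM in WT, a ratio of 1.74. Pycard, the adaptor of AIM2, had 4.94 CPM in KO and 9.82 CPM in WT. Of 22 genes of cytosolic DNA sensing, 13 reached 10 CPM; 0 were called higher and 1 lower, with a median of -0.04. That gene was Samhd1, a dNTP hydrolase, with 80.2 CPM in KO and 148 CPM in WT, a ratio of 0.540. Tmem173, which encodes STING, had 4.94 CPM in KO and 1.64 CPM in WT.

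The interferon lists had medians near that of all genes in pooled endothelial-like cells. Of 17 genes of interferon receptors and signalling, 14 reached 10 CPM and 0 were called, with a median log2 ratio of -0.09. Of 38 interferon-stimulated genes, 33 reached 10 CPM, 1 was called higher and 3 lower, and the median was 0.00. Ifi44 was the one higher, with 52.8 CPM in KO and 25.4 CPM in WT, a ratio of 2.08. The 3 lower were Igtp, an interferon-induced GTPase (20.9 CPM in KO and 39.1 CPM in WT), Iigp1, another such GTPase (114 CPM in KO and 175 CPM in WT), and Psmb9, an immunoproteasome subunit (96.5 CPM in KO and 148 CPM in WT). Isg15, a ubiquitin-like product of interferon, had 109 CPM in KO and 98.2 CPM in WT, a ratio of 1.12.

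The same lists were read in single classes of endothelium and in the fibroblast-like cells. In endothelial cluster 2, 1 of 14 interferon receptor and signalling genes was called higher and 2 lower. Of 33 interferon-stimulated genes there, 1 was called higher and 1 lower, and 0 of 12 DNA-sensing genes were called. Of all genes tested in that cluster, 3.79% were called in either direction. In gCap-like cells, where the median over all genes was -0.03 and 1.51% of genes were called higher and 2.5% lower, 2 of 13 DNA-sensing genes were called lower, Samhd1 (71.5 CPM in KO and 139 CPM in WT) and Hmgb2, a chromatin protein (83.6 CPM in KO and 127 CPM in WT). Of the 33 interferon-stimulated genes there, 1 was called higher, Ifi44 (78.1 CPM in KO and 32.6 CPM in WT), and 4 lower, among them Iigp1 (142 CPM in KO and 257 CPM in WT) and Psmb8, an immunoproteasome subunit (163 CPM in KO and 269 CPM in WT), with a median of 0.09. In adventitial fibroblast-like cells, where Ifi204 and Ifi205 were higher in KO and the median over all genes was -0.12, with 2.69% of genes called higher and 3.66% lower, 2 of 32 interferon-stimulated genes were called higher and 2 lower, with a median of -0.05. Oasl2 had 47.9 CPM in KO and 11.3 CPM in WT, and Psmb8 had 17.3 CPM in KO and 47.7 CPM in WT. Samhd1 was called higher in these cells, with 117 CPM in KO and 40.2 CPM in WT, a ratio of 2.91, opposite in direction to its call in gCap-like cells.

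Interferon-stimulated genes were lower in KO in other classes of the lung. In AT2-like cells, where no member reached 10 CPM, 15 of the 21 that reached it were called lower and 0 higher, with a median log2 ratio of -0.74 against -0.01 over all genes, of which 2.71% were called lower. Isg15 had 8.72 CPM in KO and 29.3 CPM in WT AT2-like cells, and Ifitm3, a membrane protein that restricts viral entry, had 16.1 CPM in KO and 55.8 CPM in WT. Of the receptor and signalling genes there, 3 of 11 were called lower. In smooth muscle and pericyte-like cells 4 of 31 interferon-stimulated genes were called lower and 0 higher, with a median of -0.68 against -0.09 over all genes, of which 4.29% were called lower. In aCap-like cells 0 of 31 were called, with a median of -0.36 against -0.04. Over all cells, whose makeup differed between the libraries, 19 of 32 were called lower and 0 higher, with a median of -0.66 against -0.10, and 8.28% of all genes were called lower.

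Over the 11 WT classes of at least 50 cells, which share 1 library, the genes whose levels ran most like a member were ranked by Pearson's r of log2(CPM + 5) among 10001 genes, as a description. For Ifi203 these were Bmpr2 (r = 0.985), Tmem100 (0.985), Acvrl1 (0.984), 4931406P16Rik (0.974) and Arhgap29 (0.973). For Ifi204 the closest were Atp1b3 (0.969), Fbxl12, Ints3, Crybb3 and She. For Mndal the closest were Uba7 (0.967), Prkce, Fcho2, Arl15 and Rgs12, and for Pyhin1 Tex14 (0.977), Ccdc184, Rbfox3, Lmntd1 and Grina.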

How the data were processed

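The authors deposited UMI counts by gene and barcode, not normalized; the submitters' processing notes name Cell Ranger 3.0.1 and mm10. The annotation version and read length are not given in the sources used here. Barcodes under 500 genes or over 10% mitochondrial UMIs were dropped in scanpy 1.11.5, and Scrublet removed 11 KO and 16 WT doublets. Of 2000 variable genes, 610 that differed between the libraries within classes of a first clustering were left out, and the other 1390 gave 30 principal components and 18 Leiden clusters (leidenalg 0.10.2). Clusters were named by marker lists; the naming rule was revised after the first clusters were seen. UMIs were summed per library and class and given as CPM with exact 95% intervals (scipy 1.17.1); with 1 library per group no test was run. Where a gene had 0 UMIs, 3 counts served as the floor, which is not a 95% limit. Intervals and floors cover counting error only.

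The members and lists were chosen with earlier results of these data known. Named were the 5 members, the other family genes, neighbours of at least 10 CPM, up to 4 genes per pathway list by size of ratio with its defining gene (1 of these is not reported here), and the 5 genes most like a member. Positions came from GENCODE M21, where all 13 family identifiers were found, and promoter windows from RefSeq on GRCm38.p6. Transcripts were compared in words of 31 and 91 bases and aligned with biopython 1.88. Alternatives covered the cell filters, doublets, thinning to 1500 UMIs, the denominator, the clustering, sex-linked transcripts and endothelial cluster 6.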

Additional observations from a re-analysis of the deposited data

Results flagged for a closer look

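Ifi204 ran in opposite directions in different cell classes. Its KO over WT ratio was 3.65 in adventitial fibroblast-like cells, with 31 UMIs in 50 KO cells and 9 UMIs in 67 WT cells, while it was lower in KO in gCap-like cells, aCap-like cells, endothelial cluster 2 and, under 10 CPM, AT2-like cells. The summed members, which include Ifi204, had a ratio of 2.81 in adventitial fibroblast-like cells and of 0.454 in gCap-like cells. The sum is therefore no separate case. In gCap-like cells Ifi203 had a ratio of 0.477, called lower, and Mndal 1.20, not called. In adventitial fibroblast-like cells the ratios of Ifi203 and Mndal were 2.34 and 2.70, neither called. With 1 library per group, the difference between these classes was not tested.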

How the results depend on the processing

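The ratio of the summed members in all endothelial-like cells was 0.348 (0.314 to 0.385) as reported. It was 0.0788 between KO and WT cells with Xist alone, 0.428 between KO cells with Y-linked transcripts alone and WT cells with Xist alone, and 0.453 without endothelial cluster 6. By settings chosen after seeing the data, it was 0.539 with Ifi204 left out of the sum and 0.396 with all family genes summed. The cause of these shifts was not tested, beyond the removal of Ifi204 itself. Other cell filters, doublets kept, thinning, another denominator, a lower clustering resolution and family genes left out of the clustering moved it by less than its interval. Over all cells, 5 genes were nearly absent from KO and 12 from WT; with a minimum of 50 UMIs and 10-fold, 14 and 25 were. Over single members, 141 alternative values were obtained, of which 13 moved beyond their interval. Of called ratios, 0 changed direction; of ratios that were not called, 7 values lay on the other side of 1. These were Mndal in aCap-like cells (0.807 thinned, 0.875 with Xist alone), Mndal in endothelial-like cells (1.04 with Y-linked transcripts alone, 1.13 without cluster 6) and Aim2 in endothelial-like cells (1.14 and 1.43 by sex-linked transcripts, 1.32 without cluster 6). Of 61 alternatives to a called ratio, 3 lost the call. These were Ifi204 in adventitial fibroblast-like cells after the strict cell filter of 1000 genes and 5% mitochondrial UMIs (2.41), the same in cells with Xist alone (3.66), and Ifi204 in thinned aCap-like cells, with 0 UMIs in KO and 28 in WT. Of 80 alternatives to a ratio not called, 3 gained a call: Ifi203 in adventitial fibroblast-like cells after the lax filter of 200 genes and 20% (2.72) or with Xist alone (4.70), and Mndal in endothelial-like cells with Xist alone (0.286). No paired analysis was possible because each group had 1 library. Depth limits Aim2, Pyhin1 outside aCap-like cells, and every class with few KO cells.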

Other observations

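Few genes had the pattern of Ifi204 in endothelial-like cells. Among genes with at least 100 UMIs in one library and a level at least 20-fold lower in the other, 3 were lower in KO: Ifi204 with 2 UMIs in KO and 1114 in WT, Nxpe2 with 1 UMI in KO and 161 in WT, and Nxpe4 with 0 UMIs in KO and 241 in WT. Nxpe2 and Nxpe4 lie on chromosome 9, not in the Ifi200 cluster. Of the 4 genes that were higher in KO by the same rule, 2 were Y-linked, and the others were Gm5900 with 217 UMIs in KO and 0 in WT and Igfbp3 with 1069 UMIs in KO and 82 in WT. Igfbp3 leads endothelial cluster 6. Over all cells Ifi204 itself, with 43 UMIs in KO and 1191 in WT, did not reach 20-fold.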
